A study of Sus scrofa with 599 samples.

Results

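Mesenteric fat of pigs that had never been obese was compared with mesenteric fat of pigs that had been made obese and then lost weight, in gene expression and in the A-B index of the chromatin. The samples are those that the labels place in mesenteric adipose tissue (MAD) of the normal condition (NC) and weight loss (WL) groups, 44 of the 599 samples of the series. They comprise 22 of the 236 RNA-seq libraries (12 NC and 10 WL) and 22 of the 240 Hi-C samples (12 NC and 10 WL). The donors were adult females of the Bama minipig breed. NC pigs stayed on a normal diet, WL pigs received a high-fat diet for several months and were then held at a small share of the normal caloric intake for several more months, and weight gain (WG) pigs, used here only to show the state before weight loss, were killed at the end of the high-fat diet. The groups hold different animals, and WL pigs were killed later than the others and while still under restriction. Previous obesity, caloric restriction and age at killing therefore cannot be told apart between NC and WL.

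White fat stores energy as triglyceride. Its cells take up glucose and fatty acids in response to insulin, build new fatty acids by de novo lipogenesis, and release them by lipolysis when energy is short. In obesity macrophages gather in the fat and take on a lipid-handling state marked by genes such as SPP1 and TREM2. Mesenteric fat drains into the liver and lies beside lymph nodes and the gut wall. All 8 markers of adipocytes that were looked up were detected in the libraries, with a summed level of 3976.4 to 20804.9 TPM (the unit of level used here, scaled for gene length and depth) in NC and 3779.2 to 18788.4 TPM in WL. In WL the sum was 3779.2 to 11929 TPM in replicates 1, 6 and 7 and 14755.1 to 18788.4 TPM in the others.

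Some libraries stood apart. The libraries split into a low and a high set by the level of ND4, a mitochondria-encoded subunit of respiratory complex I: no library lay between 1819.7 and 7486.9 TPM, and all 10 WL libraries, 3 NC libraries (replicates 3, 6 and 10) and 18 of 36 WG libraries were in the low set. The set is a property of the libraries, not a labelled batch. Within NC alone 3293 of 14053 genes differed between the low and the high set, and within WG alone 4923 of 14063, so this property moves with many genes where the diet was the same. The sets were cut from the same libraries, so these counts are descriptions. The high NC set also held replicates 5 and 7, the lowest NC libraries in depth, and replicates 1 and 5, rich in smooth muscle transcripts. WL replicates 1, 6 and 7 carried lymphoid transcripts: MS4A1, the B cell antigen CD20, reached 61.91 to 236 TPM in them against at most 2.766 TPM in the other 7 WL libraries. NC replicates 1 and 5 were rich in smooth muscle transcripts (ACTG2 up to 3813.9 TPM, against at most 343.4 TPM in the other NC libraries). Estimated counts on protein-coding genes (PCGs) were 8005550 to 21140387 in NC and 12626380 to 18677197 in WL.

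For these reasons each NC and WL difference was fitted in 3 ways: over all libraries, with the ND4 set as a term in 1 fit over NC, WG and WL, and within the low-ND4 set (3 NC against 10 WL libraries). A differentially expressed gene (DEG) has an adjusted p below 0.05 and a change above 1.5-fold, and "rose" or "fell" is written below only of DEGs, WL against NC. Over all libraries 4689 of 14170 tested PCGs were DEGs (33.1%), 2160 higher (15.2%) and 2529 lower (17.8%) in WL. With the set as a term 3301 were (23.3%), 1831 higher (12.9%) and 1470 lower (10.4%), so that the share of higher genes among the calls went from 46.1% to 55.5%. Within the low set 1302 of 14146 were (9.20%), 389 higher (2.75%) and 913 lower (6.45%), a share of 29.9% higher. Counts of calls in gene lists below stand beside these shares of all genes. Of the DEGs over all libraries, 682 (4.81%) held in the same direction in all 3 fits, 196 higher (1.38%) and 486 lower (3.43%), and 577 of the 682 were still DEGs without WL replicates 1, 6 and 7. That fit called 3286 of 14116 genes (23.3%), 1373 higher (9.73%) and 1913 lower (13.6%), and the fit without NC replicates 1 and 5 called 4360 of 14267 (30.6%), 2060 higher (14.4%) and 2300 lower (16.1%). The TPM ranges of the groups were fully apart for 219 genes higher in WL (1.55%), of which 76 held in all 3 fits, and for 35 genes lower in WL (0.247%), all of which did. TPM has a fixed total per library. Mitochondria-encoded genes held a median of 200019.5 TPM in NC and 19424.4 TPM in WL, which leaves less for other genes in NC. In WL 1 long non-coding RNA took up to 15.72% of TPM. TPM levels and ranges, here and below, carry both shifts, while the fold changes come from scaled counts. Their part in these 219 and 35 genes was not tested.

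**Figure D1:**
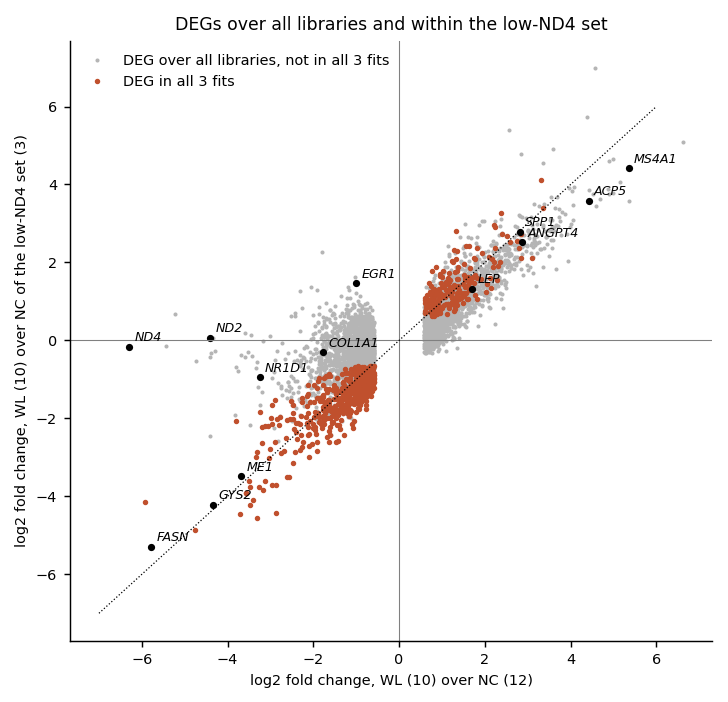
Log2 fold change (WL over NC) of each DEG over all libraries (x axis, 10 against 12 libraries) against the same within the low-ND4 set (y axis, 10 WL against 3 NC libraries); the dotted line marks equal values. The 682 genes that were DEGs in all 3 fits are in orange and named genes in black. FASN, ME1 and GYS2 lie near the line, ND4 and ND2 lie at 0 on the y axis, and EGR1 changes sign.

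De novo lipogenesis, the pathway that turns citrate into fatty acids, was low in WL in all 3 fits. Of its 15 genes tested, 12 fell and 1 rose over all libraries, 11 fell and none rose with the set as a term, and 9 fell and none rose within the low set. The median log2 fold change was -1.47, -1.68 and -1.35 in the 3 fits, against -0.01 over all genes tested. The 9 genes that fell in all 3 fits were ACLY, ACACA, FASN, ELOVL6, ME1, MLXIPL, ACSS2, SLC25A1 and PGD. As the samples are bulk tissue, fewer cells of a type and less RNA per cell cannot be told apart, here and in all results that follow.

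FASN, fatty acid synthase (ENSSSCG00000029944, chromosome 12, 922405 to 937560 on the plus strand of Sscrofa11.1), had a lowest, median and highest level of 232, 1623 and 2887 TPM in NC and of 9.82, 27.8 and 76.1 TPM in WL. The groups did not overlap, and every WL library lay below every NC library. The log2 fold change was -5.78 ± 0.50 (SE, adjusted p = 3.23e-07), -5.54 with the set as a term and -5.29 within the low set (adjusted p = 2.65e-05). ME1, malic enzyme, which supplies NADPH, ran from 55.4 through 350 to 593 TPM in NC and from 9.68 through 30.9 to 56.3 TPM in WL. It fell by 3.68 on the log2 scale, and 9 of 10 WL libraries were below all NC libraries. MLXIPL, the carbohydrate-sensing transcription factor ChREBP, ran from 13.7 through 62.5 to 114 TPM in NC and from 2.04 through 5.15 to 10.3 TPM in WL. Its ranges were apart, and its log2 fold change was -3.81 over all libraries and -2.07 within the low set, where the NC libraries held 13.7 to 30.3 TPM. ACLY, which makes cytosolic acetyl-CoA, had medians of 187 TPM in NC and 54 TPM in WL with overlapping ranges, and fell by 2.28 on the log2 scale (adjusted p = 1.41e-05). ELOVL6, a fatty acid elongase, had medians of 600 and 156 TPM and fell by 1.96. SCD, the stearoyl-CoA desaturase, overlapped widely (16.3 to 1361 TPM in NC, 12.5 to 772 TPM in WL): it fell over all libraries by 1.96 and did not pass within the low set (-1.41, adjusted p = 0.31). SREBF1, the gene of the lipogenic factor SREBP-1, fell over all libraries by 1.13 and did not pass within the low set (-0.39, adjusted p = 0.57).

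The stretch from 250 bases before to 50 bases after the RefSeq gene start (Sscrofa11.1) is shown for 3 of the lipogenic genes that fell in all 3 fits, since these genes moved together. Capitals mark matches, on either strand, to the E-box letters CACGTG, the core of sites that ChREBP is known to use, and to the CCAAT box (CCAAT or ATTGG).
ACLY, chr12:20796428-20796727, plus strand: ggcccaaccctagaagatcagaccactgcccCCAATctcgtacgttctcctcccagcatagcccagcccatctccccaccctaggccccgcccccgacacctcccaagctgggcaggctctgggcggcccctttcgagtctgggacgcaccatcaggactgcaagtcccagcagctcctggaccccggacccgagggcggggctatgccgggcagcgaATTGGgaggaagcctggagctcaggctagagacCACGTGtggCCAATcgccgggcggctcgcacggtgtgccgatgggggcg
ELOVL6, chr8:112038420-112038719, plus strand: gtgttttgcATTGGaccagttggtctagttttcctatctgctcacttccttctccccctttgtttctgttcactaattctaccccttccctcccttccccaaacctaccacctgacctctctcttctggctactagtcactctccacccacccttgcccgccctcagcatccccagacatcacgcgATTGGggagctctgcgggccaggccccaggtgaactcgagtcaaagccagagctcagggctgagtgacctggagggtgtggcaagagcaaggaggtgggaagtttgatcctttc
FASN, chr12:922155-922454, plus strand: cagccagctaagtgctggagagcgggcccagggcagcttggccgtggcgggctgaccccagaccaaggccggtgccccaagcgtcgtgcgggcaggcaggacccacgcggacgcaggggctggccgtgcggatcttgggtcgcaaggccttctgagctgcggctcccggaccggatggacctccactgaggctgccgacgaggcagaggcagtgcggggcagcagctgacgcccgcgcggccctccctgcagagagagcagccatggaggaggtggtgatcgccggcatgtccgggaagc
ACLY held 1 E-box and 3 CCAAT boxes and ELOVL6 held 2 CCAAT boxes, while FASN held neither set of letters. In the FASN window an ATG with an open reading frame follows within the 50 bases after the start. The FASN model may thus begin at a coding exon, and its window may not lie at the start of transcription. Over the 8 genes whose windows were searched, 2 windows held CACGTG, against 7.93% of 19531 RefSeq windows of the same length, and 4 held a CCAAT box, against 35.4%. None of the 8 held TATAAA, found in 10.9% of windows. The start is that of 1 RefSeq model per gene, a match is only a match of letters, and no match says only that these letters are not in this window.

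Several genes of glycogen, glucose and amino acid handling were among those named for a fall, so their shared direction comes from the rule that named them. GYS2, glycogen synthase 2, ran from 12.2 through 83.6 to 153 TPM in NC and from 1.56 through 4.62 to 17.1 TPM in WL. Of the WL libraries 9 lay below all NC libraries, and the log2 fold change was -4.33 ± 0.42 (adjusted p = 6.38e-07), with -4.21 within the low set. PFKFB1, which sets the level of an activator of glycolysis, ran from 5.38 through 22.5 to 33 TPM in NC and from 0.0941 through 0.477 to 3.56 TPM in WL. SLC36A2, a carrier of small amino acids, ran from 2.71 through 9.11 to 39.1 TPM in NC and from 0.118 through 0.28 to 0.605 TPM in WL. The ranges of PFKFB1 and SLC36A2 were apart, with log2 fold changes of -4.75 and -5.94 over all libraries and -4.87 and -4.14 within the low set. Of 16 genes tested in the list of fasting and amino acid response, 4 rose and 3 fell over all libraries, 3 rose and 4 fell with the set as a term, and 3 fell within the low set. Of all genes 15.2%, 12.9% and 2.75% rose in the 3 fits, and 17.8%, 10.4% and 6.45% fell. In the fasting list PSAT1, of serine synthesis, and CHAC1, which breaks down glutathione, fell in all 3 fits, by 1.86 and 3.71 on the log2 scale over all libraries. MCCC2, of leucine breakdown, had medians of 201 and 40.8 TPM with ranges apart and fell by 2.48.

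**Figure D2:**
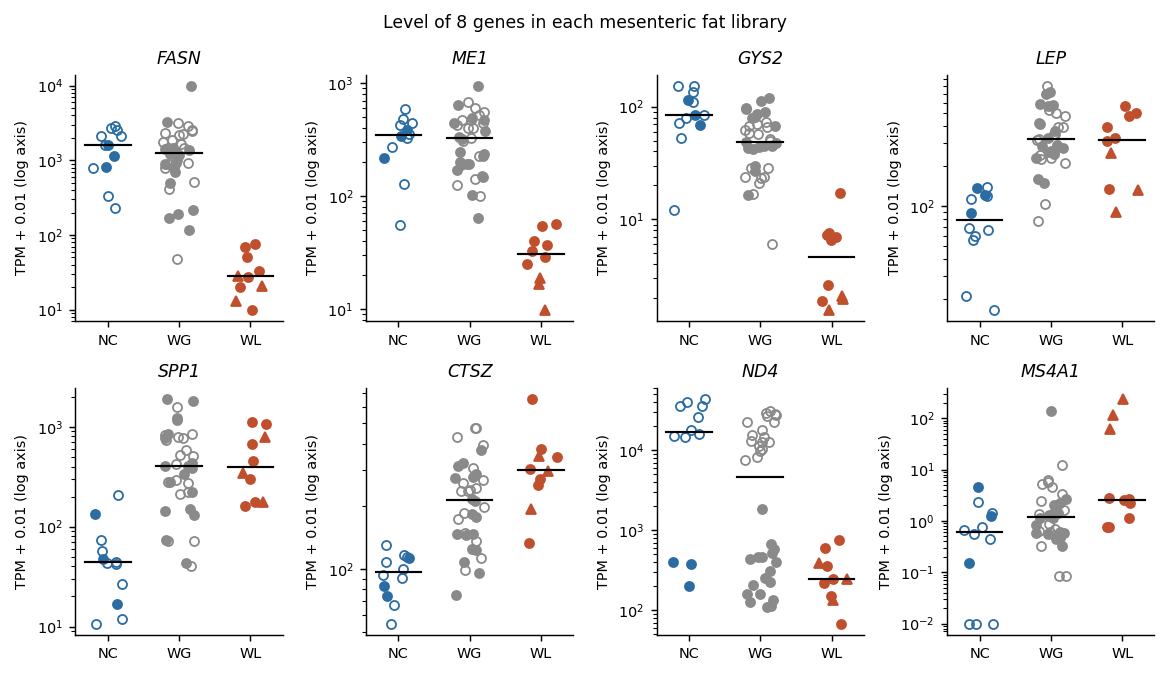
Level of 8 genes in every mesenteric fat library (TPM plus 0.01, log axis) in NC (12), WG (36) and WL (10); filled points are the low-ND4 set, open points the high-ND4 set, triangles WL replicates 1, 6 and 7, and bars group medians. All WL points of FASN lie below all NC points and those of CTSZ above, ND4 falls into separate sets in NC and WG, and the 3 triangles stand apart in MS4A1.

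Of the 8 adipocyte markers 4 fell and 1 rose over all libraries, 6 fell and 1 rose with the set as a term, and 1 fell within the low set, with median log2 fold changes of -0.60, -0.80 and -0.84. Without WL replicates 1, 6 and 7, 3 fell and 1 rose (median -0.31). Their part in the fall of lipogenic and insulin genes was not tested. Insulin signalling and glucose uptake followed the same direction in part. Of 15 genes tested, 8 fell over all libraries, 6 with the set as a term and 3 within the low set, and none rose in any of them. Without WL replicates 1, 6 and 7, 4 fell and none rose. SLC2A4, the insulin-responsive glucose transporter GLUT4, overlapped between groups (11.5 to 92.9 TPM in NC, 10.3 to 43.1 TPM in WL) and fell by 1.13 over all libraries and by 1.82 within the low set (adjusted p = 0.0085). SLC2A5, the fructose transporter, had medians of 9.04 and 1.36 TPM and fell by 2.97 and 3.72 in those fits. INSR and IRS1, the insulin receptor and its main substrate, fell over all libraries by 0.78 and 1.10 and did not pass within the low set (adjusted p = 0.087 and 0.30). IRS2 had a log2 fold change of -0.50 that did not pass (adjusted p = 0.059). PPARG, the master regulator of fat cells, had medians of 247 and 126 TPM, with 4 WL libraries below all NC libraries, and fell by 1.27, 1.22 and 1.42 in the 3 fits. It was 1 of 5 of 14 adipogenic transcription factors that fell over all libraries, and the 1 that did within the low set. CEBPA, its partner, did not pass over all libraries (0.17, adjusted p = 0.73) and of the 3 fits fell with the set as a term alone, by 0.79.

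Lipid uptake and release were mixed. LPL, the lipase that frees fatty acids from plasma lipoproteins, ran from 481 through 2257 to 2967 TPM in NC and from 274 through 740 to 1676 TPM in WL, and fell by 1.59, 1.54 and 1.81 in the 3 fits. GPIHBP1, which holds LPL on the vessel wall, rose over all libraries by 1.15 and with the set as a term by 0.78, and did not pass within the low set (adjusted p = 0.37). Of 17 lipolysis and lipid droplet genes 8 fell and 3 rose over all libraries, and 2 fell and none rose within the low set. Without WL replicates 1, 6 and 7, 5 fell and 2 rose. Of all genes 17.8% fell and 15.2% rose over all libraries, and 6.45% and 2.75% within the low set. Without those replicates 13.6% and 9.73% did. PDE3B, through which insulin restrains lipolysis, fell in all 3 fits (-1.02, -1.12 and -1.32). LIPE, hormone-sensitive lipase, fell by 0.92 and PNPLA2, the first triglyceride lipase, by 1.29 over all libraries, and neither passed within the low set (adjusted p = 0.18 and 0.64). NPR3, the clearance receptor of natriuretic peptides, and ADRA2A, an anti-lipolytic adrenergic receptor, rose over all libraries by 1.73 and 1.98 and with the set as a term by 1.51 and 1.87, with 8 of 10 WL libraries above all NC libraries for each. Within the low set their values were 1.52 and 1.80 (adjusted p = 0.081 and 0.12). Of 11 triglyceride synthesis genes 3 fell and 1 rose over all libraries, and 2 fell within the low set, LPIN1, a phosphatidate phosphatase (-1.92 and -1.23), and AGPAT2, named after its values were seen (-0.36 over all libraries, adjusted p = 0.36, and -1.35 within the low set).

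Fatty acid oxidation gave more calls where the ND4 set was held. Of 18 genes 5 fell and 1 rose over all libraries, 9 fell and 2 rose with the set as a term, and 7 fell and 1 rose within the low set. Without WL replicates 1, 6 and 7, 2 fell and 1 rose. CPT1A, the gate of fatty acids into mitochondria, was the 1 that rose in all 3 fits, from 20.1, 33.8 and 67.7 TPM (lowest, median and highest) in NC to 57.6, 63.9 and 96.9 TPM in WL. The ranges overlapped, with 4 WL libraries above all NC libraries, and the log2 fold change was 0.77 over all libraries and 1.23 within the low set. HADH, of the beta-oxidation spiral, and PPARA, the factor that turns oxidation on, fell in all 3 fits, by 1.05 and 1.25 over all libraries. HADHA and HADHB, the trifunctional protein, named after their values were seen, were at -0.42 and -0.52 over all libraries, under the fold limit, and fell by 0.85 and 1.04 within the low set. Nuclear genes of the respiratory chain behaved alike: of 62 tested, 9 fell and 1 rose over all libraries, and 35 fell and none rose both with the set as a term and within the low set. Their summed level was 10942.5 to 13401.1 TPM in the low-set NC libraries and 7200.2 to 9131.4 TPM in WL. In the other NC libraries it was 5331.3 to 9157.6 TPM, where mitochondria-encoded genes took 162802.5 to 373617.5 TPM. NDUFA4 had medians of 353 and 203 TPM and UQCR10 of 199 and 148 TPM, both with overlapping ranges, and both fell in all 3 fits (NDUFA4 by 0.93 and 1.18, UQCR10 by 0.73 and 1.13 over all libraries and within the low set). The mitochondria-encoded genes gave fewer calls where the set was held: all 12 tested fell over all libraries, with a median log2 fold change of -4.34, 7 of 12 fell with the set as a term, with a median of -0.93, and 1 of 12 fell within the low set, with a median of -0.40. That 1 was COX1, a subunit of cytochrome oxidase, at 12032 to 25883 TPM in the NC libraries of the low set and 4997 to 14093 TPM in WL. ND4 had -6.30 over all libraries and -0.17 within the low set (adjusted p = 0.86), and since it defined the sets its value within them is a description.

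Adipokines split. LEP, leptin, ran from 16.5 through 78.3 to 138 TPM in NC and from 90 through 316 to 564 TPM in WL, and the WG median was 322 TPM. Of the WL libraries 7 lay above all NC libraries, and LEP rose by 1.69 ± 0.34 over all libraries (adjusted p = 0.00043) and by 1.49 with the set as a term. Within the low set the change was 1.33 (adjusted p = 0.091), and without WL replicates 1, 6 and 7 it was 1.95. ADIPOQ, adiponectin, had medians of 4983 and 2377 TPM with overlapping ranges and fell by 1.06 over all libraries, and its value within the low set was -1.19 (adjusted p = 0.12). WL replicates 6 and 7 held 478.3 and 748.9 TPM. The other WL libraries held 2034.6 to 4848.4 TPM, within the NC range of 1510.2 to 7690.7 TPM. AGT, angiotensinogen, ran from 186 through 411 to 937 TPM in NC and from 29.5 through 92.6 to 168 TPM in WL, with no overlap, and fell by 2.41, 2.03 and 2.13 in the 3 fits. CFD, adipsin, had medians of 242 and 661 TPM and rose by 1.10, with 9 of 10 WL libraries above all NC libraries; within the low set it was at 0.57 (adjusted p = 0.092). RBP4, the retinol carrier, named after its values were seen, fell in all 3 fits (-1.59, -1.46 and -1.77).

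Many macrophage genes were higher in WL than in NC. Of 16 lipid-associated macrophage genes 7 rose and 1 fell over all libraries, 6 rose and 1 fell with the set as a term, and 7 rose and 1 fell without WL replicates 1, 6 and 7; within the low set 1 rose and 1 fell. LPL, described above, was the 1 that fell. SPP1, osteopontin, ran from 10.7 through 44.2 to 209 TPM in NC and from 161 through 396 to 1110 TPM in WL. The ranges overlapped at their ends, 7 WL libraries lying above all NC libraries, and the log2 fold change was 2.81, 2.59 and 2.78 in the 3 fits. TREM2, a lipid receptor of macrophages, rose over all libraries by 1.71 and by 1.595 without WL replicates 1, 6 and 7, and had 1.80 within the low set (adjusted p = 0.10). ACP5, an acid phosphatase of osteoclasts and macrophages, ran from 0.80 through 4.04 to 11.08 TPM in NC and from 8.42 through 56.9 to 246 TPM in WL, and rose in all 3 fits (4.42, 3.92 and 3.58). CTSZ, a lysosomal protease, ran from 54.9 through 96.7 to 131 TPM in NC and from 134 through 298 to 654 TPM in WL. Its ranges were apart, and it rose by 1.51, 1.72 and 1.68. Of 15 resident macrophage genes 10 rose over all libraries, 8 without WL replicates 1, 6 and 7 and 1 within the low set, and none fell in these fits. CD68, a pan-macrophage marker, rose in all 3 fits by 1.33, 2.86 and 2.80, but did not pass without WL replicates 1, 6 and 7 (0.94, adjusted p = 0.068). CD163, a scavenger receptor of resident macrophages, had medians of 70.3 TPM in NC, 187 TPM in WG and 79 TPM in WL, with no call between NC and WL (0.17, adjusted p = 0.72).

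Inflammatory and lymphoid genes moved with WL replicates 1, 6 and 7. All 13 T cell genes tested rose over all libraries (median log2 fold change 2.83), 10 did without these 3 libraries (median 0.95), and none passed within the low set (median 2.81, and 0.70 there without the 3 libraries). At an unadjusted p below 0.05 in edgeR, 11 of the 13 were higher within the low set, where 13.3% of all genes were. The summed T cell level was 476.4 to 1034.9 TPM in the 3 libraries, 57.48 to 117.9 TPM in the other 7 and 17.99 to 57.97 TPM in NC. Of 11 B and plasma cell genes 9 rose over all libraries, and 3 rose and 1 fell without them. CD22 and CD4 were above all NC libraries in 10 of 10 WL libraries, at 3.38 to 34.4 TPM against 0.818 to 2.41 TPM and at 2.29 to 51.9 TPM against 0.41 to 2.25 TPM, and both rose also without the 3 libraries, by 1.27 and 1.28. MS4A1, which rose by 5.35 over all libraries, had 0.60 without them (adjusted p = 0.51). Of 20 cytokine and chemokine genes 14 rose over all libraries and 9 without the 3 libraries, none fell, and none passed within the low set, where 11 of 20 were higher at an unadjusted p below 0.05 in edgeR, against the same 13.3% of all genes. CCL2, a monocyte attractant, rose by 1.66 and, without them, by 1.06. IL6 did not pass (0.49, adjusted p = 0.23), with medians of 8.96 TPM in NC, 32.4 TPM in WG and 18.1 TPM in WL. Interferon-stimulated genes rose for 4 of 17 over all libraries and for none without the 3 libraries, where 5 of 17 were higher at an unadjusted p below 0.05 in edgeR, against 19.6% of all genes. Lymph node markers summed to 899 to 2120.5 TPM in the 3 libraries, 179.1 to 661.5 TPM in the other WL libraries and 80.49 to 692.6 TPM in NC, and proliferation genes rose for 13 of 16 over all libraries and for 3 without the 3 libraries. The part of lymphoid tissue in these calls was not tested beyond leaving the libraries out.

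**Figure D3:**
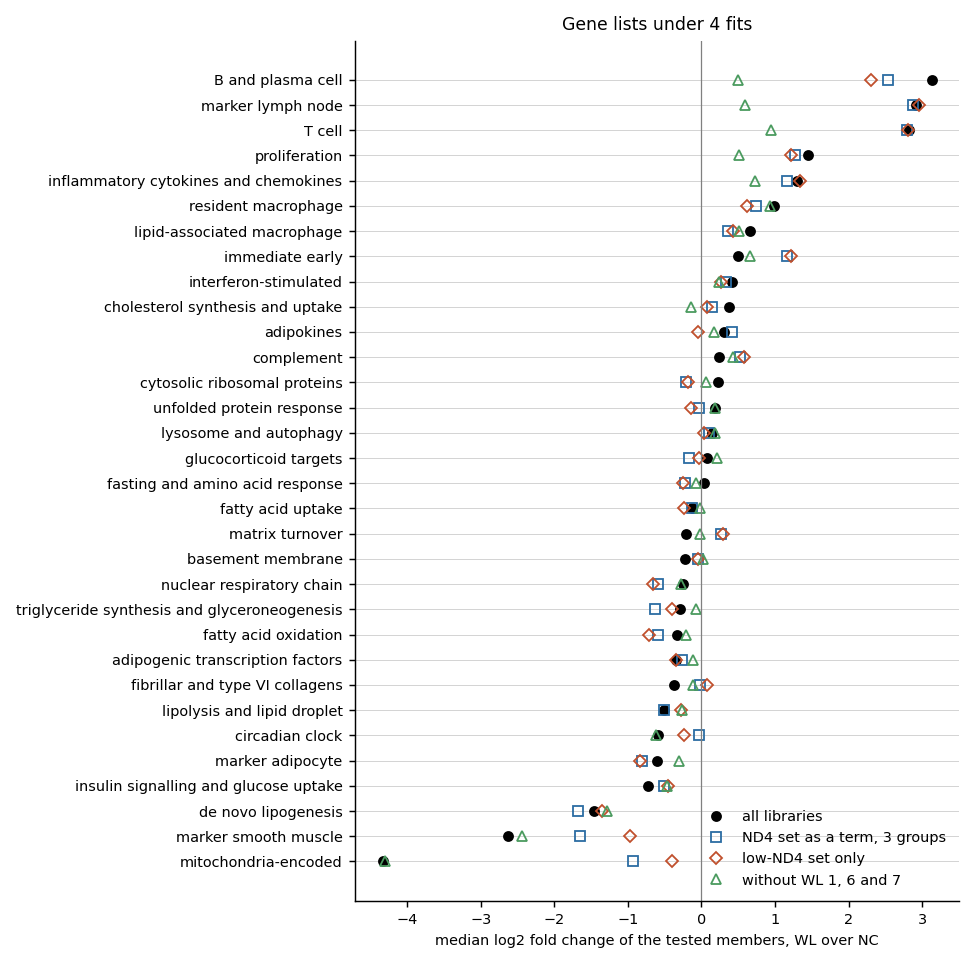
Median log2 fold change (WL over NC) of the tested members of each gene list (y axis) under 4 fits. De novo lipogenesis lies between -1.28 and -1.68 in all 4, the T cell and B and plasma cell lists fall below 1 without WL replicates 1, 6 and 7, and the mitochondria-encoded list goes from -4.34 to -0.40 within the low-ND4 set.

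Matrix genes gave fewer calls within the low set, as all genes did. Of 14 fibrillar and type VI collagens 4 fell over all libraries and 1 within the low set, where 17.8% and 6.45% of all genes fell. The median log2 fold change of the 14 was -0.37 and 0.07 in these fits. COL1A1, the main fibrillar collagen, had medians of 98.3 and 30 TPM and fell by 1.77 over all libraries, whereas within the low set it had -0.31 (adjusted p = 0.63), the NC libraries of that set holding 21.8 to 59.2 TPM. COL6A1 was at -0.66 over all libraries and at 0.27 within the low set (adjusted p = 0.59). CCN1, a matrix protein of mechanical signalling, rose in all 3 fits (1.61, 1.76 and 1.63). Of 7 smooth muscle markers 4 fell and 1 rose over all libraries, and 1 fell and 2 rose without NC replicates 1 and 5. Of all genes 17.8% fell and 15.2% rose over all libraries, and 16.1% and 14.4% without those replicates.

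Genes of rapid response turned on the set, and clock genes gave fewer calls where it was held. Of 15 immediate early genes 5 rose and 2 fell over all libraries, 13 rose and none fell with the set as a term, and 7 rose and none fell within the low set. JUNB and EGR2 rose in all 3 fits, by 1.35 and 1.64 over all libraries and by 1.13 and 2.42 within the low set. EGR1 and ZFP36, named after their values were seen, fell over all libraries (-1 and -1.35) and rose within the low set (1.47 and 1.15, adjusted p = 0.026 and 0.049). EGR1 was at 17.2 to 37.8 TPM in the low-set NC libraries, 92.3 to 493.5 TPM in the other NC libraries and 40.3 to 170 TPM in WL. Of 18 clock genes 8 fell over all libraries, 3 fell and 1 rose with the set as a term, and 3 fell within the low set. Of all genes 17.8%, 10.4% and 6.45% fell in the 3 fits. The median log2 fold change of the clock genes was -0.59, -0.03 and -0.24. CIART, a repressor within the clock, fell in all 3 fits (-1.07, -1.22 and -1.35), while NR1D1, the repressor REV-ERB alpha, fell over all libraries by 3.25 and did not pass within the low set (-0.94, adjusted p = 0.32). Times of killing were not given in the labels.

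To place these differences against obesity, the 3 pairwise fits over all libraries were joined. NC and WG differed at 1477 of 13845 genes (10.7%), 745 higher (5.38%) and 732 lower (5.29%) in WG, and WG and WL at 2425 of 13918 (17.4%), 1149 higher (8.26%) and 1276 lower (9.17%) in WL. They share samples, so their calls are not independent. A gene stayed changed if it was a DEG in the same direction between NC and WG and between NC and WL, which held for 1117 genes, 608 up and 509 down. Of the 608, 183 also rose from WG to WL and 1 fell back, and of the 509, 106 also fell further and 2 rose back. A gene overshot if it lay on one side of NC in WG and on the other in WL, both as DEGs, which held for 3 genes. A gene returned if it went back from WG to WL and was no DEG between NC and WL, which held for 108. A gene changed only with weight loss if it was a DEG between WG and WL and between NC and WL in the same direction but not between NC and WG, which held for 1646, 710 up and 936 down. With the set as a term the 4 counts were 822, 4, 109 and 1353, and within the low set they were 74, 0, 12 and 520. Without WL replicates 1, 6 and 7 they were 896, 2, 53 and 470. Of the 682 genes called in all 3 fits, 107 stayed changed up, 116 stayed changed down, and 45 and 238 changed up and down only with weight loss.

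Among genes that stayed changed, ANGPT4, an angiopoietin that acts on vessel growth, went from 1.47, 3.83 and 5.78 TPM (lowest, median and highest) in NC through a median of 5.96 TPM in WG to 9.29, 29.9 and 49.5 TPM in WL. Its NC and WL ranges were apart, and it rose in all 3 fits (2.87, 2.87 and 2.52). SLC15A3, a lysosomal histidine and peptide carrier of immune cells, PTGIR, the prostacyclin receptor, MARCKS and LFNG also rose in all 3 fits, each with 10 of 10 WL libraries above all NC libraries, by 2.05, 1.63, 1.33 and 1.34 over all libraries. Here all 3 fits are of NC against WL, while the step from NC to WG comes from the fit over all libraries alone. Within the low set 16 genes stayed changed up and 58 down. ANGPT4 was at 4.74 to 4.86 TPM in the NC libraries of that set. GYS2, PFKFB1, SLC36A2 and MLXIPL, described above, and DIPK1A stayed changed downward. By contrast, FASN, ME1, MCCC2, ODAD4 and ECHDC1 changed only with weight loss: they were no DEGs between NC and WG, where FASN had -0.24, and the fall came between WG and WL, at -5.57 for FASN. KCNS3, LMO2, PIM1, ST3GAL1 and STING1 rose only with weight loss by this rule and in all 3 fits, from 1.74 for KCNS3 to 1.24 for ST3GAL1 on the log2 scale. Their log2 changes between NC and WG were 0.43 to 0.54, under the fold limit.

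The 3 genes that overshot were low in level. ESM1, a proteoglycan of endothelial cells, had mean levels of 3.465 ± 2.287 TPM in NC (SD, n = 12), 10.18 ± 8.723 TPM in WG (n = 36) and 1.677 ± 0.942 TPM in WL (n = 10), with a log2 fold change of -1.30 between NC and WL (adjusted p = 0.0031). The ranges of NC and WL overlapped, 4 WL libraries lying below all NC libraries, and the value within the low set was -1.54 (adjusted p = 0.055). LHFPL5 had means of 2.142, 4.507 and 0.896 TPM in NC, WG and WL and fell by 1.48 between NC and WL (adjusted p = 0.025), with -1.28 without WL replicates 1, 6 and 7 (adjusted p = 0.069). DPEP2, a dipeptidase of leukocytes, had means of 2.008, 1.175 and 5.558 TPM and rose by 1.37, but had 0.41 without WL replicates 1, 6 and 7 (adjusted p = 0.38). Among genes that returned, FSTL1, a secreted glycoprotein of stromal cells, had medians of 524, 976 and 609 TPM in NC, WG and WL.

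The A-B index scores each 20-kb bin of the genome by its contacts with open, gene-rich (A) against closed (B) chromatin, and is above 0 in compartment A. Over 113298 bins on 18 autosomes, A/B variable bins (adjusted p below 0.05, difference above 0.75, more than 80% of samples of each group in the same compartment) numbered 11121 (9.82%), 9637 higher (8.51%) and 1484 lower (1.31%) in WL. A median shift of 0.101 toward WL lay under this count, and the share of bins above 0 was 45.43% to 48.99% in NC and 46.87% to 50.42% in WL. The SD of the index over the bins of a sample was 2.718 to 3.286 in NC and 3.076 to 3.265 in WL. After quantile normalization, which makes all samples share 1 distribution, the median shift was -0.02 and 5100 bins were variable (4.50%), 3405 higher and 1695 lower. Bins called in both scalings numbered 3173 higher and 729 lower. Among the variable bins in A, 9216 were higher and 55 lower, and among those in B 421 were higher and 1429 lower. The part of the shift and of the spread between samples in these counts was not tested beyond the quantile normalization. A/B switch bins, with more than 80% of samples in opposite compartments, numbered 146 (0.129%), 144 of them from B to A, while after quantile normalization there were 338 (0.298%), 57 to A and 281 to B, so the direction of switching turned with the scaling, and 48 and 2 were shared.

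Adjacent variable bins were merged into regions, which were ranked by their mean difference. The first of them was chr13:203480001-203500000 (3.66 in NC and 7.60 in WL), in which no gene of those with coordinates starts, and the first that holds a gene start, that of ARIH2, a ubiquitin ligase, was chr13:31560001-31580000. The ARIH2 bin went from a mean of 3.818 in NC to 6.19 in WL, with samples between 2.676 and 5.045 in NC and between 4.862 and 8.914 in WL, and the bin of PAWR, a pro-apoptotic regulator, went from 0.456 to 2.503. Both passed in both scalings (adjusted p = 0.0015 and 3.7e-05 after quantile normalization). The SSUH2, HS3ST1, PAPPA and RHOBTB3 starts lay in switch bins: 1 of 12 NC samples and 10 of 10 WL samples were in A at SSUH2, and 2 of 12 and 9 of 10 at HS3ST1. Of the 10 genes named this way, PAPPA, a protease of IGF-binding proteins, fell over all libraries (-0.81, adjusted p = 0.011) but not within the low set (0.13, adjusted p = 0.73), and the other 9 did not pass over all libraries. STX3, a membrane fusion protein beyond the 10 and named after its values were seen, also starts in a switch bin (2 of 12 NC and 9 of 10 WL samples in A, adjusted p = 0.01, and 0.064 after quantile normalization), and it rose over all libraries by 0.63 (adjusted p = 0.016) but did not pass within the low set (0.69, adjusted p = 0.18).

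**Figure D4:**
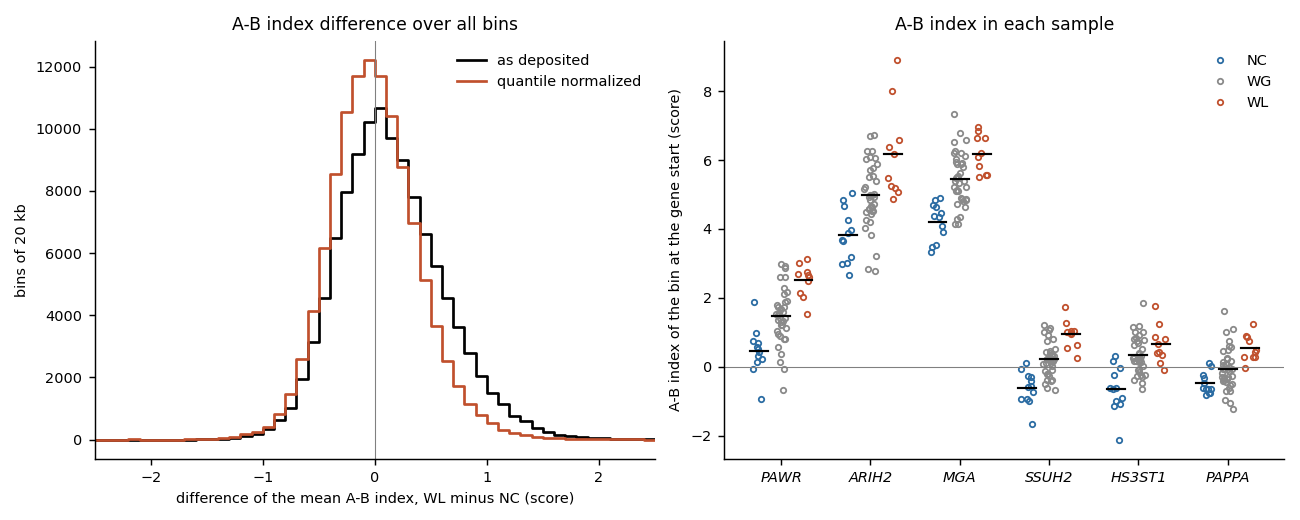
Left, number of 20-kb bins by difference of the mean A-B index (WL minus NC, score) as deposited and after quantile normalization, with medians of 0.101 and -0.02. Right, A-B index of the bin at the start of 6 genes in each NC (12), WG (37) and WL (10) sample with group means; SSUH2, HS3ST1 and PAPPA go from below to above 0.

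Index differences were set beside expression at gene starts. The median index difference at gene starts was 0.386 over 10582 tested genes, 0.383 over the 1685 that rose and 0.353 over the 1568 that fell (0.051, 0.055 and 0.024 after quantile normalization). Over genes called in all 3 fits it was 0.402 for the 160 that rose and 0.327 for the 393 that fell (0.085 and 0.011 after quantile normalization). The bin was higher by adjusted p at 44.4% of these risers and 32.6% of these fallers, against 39.9% of all tested genes. After quantile normalization these shares were 20%, 15.5% and 17%. Whether these shares differ was not tested. At the start of FASN the difference was 0.135 (adjusted p = 0.54) and at that of GYS2 -0.144 (adjusted p = 0.47). By adjusted p alone 18.4% of all bins were higher and 4.53% lower in WL, and 8.10% and 6.44% after quantile normalization. At the starts of tested genes the bin was higher for 39.9% and lower for 0.898%, and for 17% and 8.3% after quantile normalization. The genes whose bins are given in this paragraph were picked under no stated rule, and a match of their index to expression was not tested. The bin of LPL was lower in WL in both scalings, by 0.804 (adjusted p = 0.0083, and 0.0019 after quantile normalization), and that of TREM2 was higher in both, by 1.049 (adjusted p = 5.72e-05 and 0.0041). The bin of EGR1, in a region outside the first 10 by mean difference, was 2.512 higher in WL (adjusted p = 7.3e-05, and 7.45e-05 after quantile normalization), and the expression of this gene changed sign between fits. At LEP the index was 0.857 higher (adjusted p = 0.0032, and 0.067 after quantile normalization).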

How the data were processed

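RNA-seq and Hi-C of mesenteric fat were taken from tables of the whole series; 9 columns in each table matched no sample here and were not used. The authors quantified transcripts with kallisto (0.43.0 in the submitters' processing notes) and deposited TPM and estimated counts per gene; the counts were rounded. They deposited the A-B index as a score per 20-kb bin. Groups follow the labels. PCGs that exceeded 0.5 TPM in at least 80% of libraries in any group compared entered edgeR 4.0.16 (TMM, quasi-likelihood F test, Benjamini-Hochberg adjustment over all genes, R 4.3.3), and A-B indices with limma 3.58.1 over all bins. The SE of a log2 fold change was derived from the F test, as its absolute value over the square root of F. Alternatives were DESeq2 1.42.0, other scalings and filters, covariates, a replicate block and left-out libraries. Within each assay the samples are separate pigs. The paper reports RNA-seq for the samples matching those of Hi-C, so expression and index are not independent sets of pigs. Depth was 8005550 to 21140387 estimated counts, which limits genes of low level; the depth behind the index is unknown. The ND4 set and the left-out libraries were chosen after seeing the data. Named genes were, per direction, the 10 largest changes, up to 4 DEGs per list plus defining genes, 5 per class, and genes at the leading A/B regions; others are said to be named after their values were seen. The members and lists were chosen with earlier results of these data known. Scripts were tested on simulated data. Symbols were given for 14821 of 21280 PCGs. Sequences come from the RefSeq genome Sscrofa11.1. 1 gene covered by the naming rule and 1 promoter window are not reported here.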

Additional observations from a re-analysis of the deposited data

Results flagged for a closer look

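Of 220 sets of WL values examined, 6 had a sample far from the other 9. Chance alone gives about 1 in 20, which is more than 6 of 220, so these samples are given as descriptions only. WL replicate 2 was the highest for CPT1A (96.9 TPM, next 76), PDPN (27.1 TPM, next 13) and FLT4 (51.3 TPM, next 26.6), PDPN and FLT4 being genes of lymphatic vessels. MYC was lowest in WL replicate 9 (14.7 TPM, next 26.9), and AURKB, a mitotic kinase, was highest in WL replicate 6 (18.7 TPM, next 9.51), 1 of the 3 libraries with lymphoid transcripts. In the A-B index, WL replicate 10 had 46.87% of bins above 0, against at least 49.22% in the other WL samples. Among long non-coding RNAs, which no comparison above used, 1 transcript (G48565) took at most 0.1249% of the TPM of NC libraries, and its median over WL libraries was 8.126%. It took 6.944% to 15.72% in 6 WL libraries and 0.01787% to 0.1192%, within the NC range, in the other 4 (replicates 2, 8, 9 and 10), and it was at 12.42% in WG replicate 19. Its part in the values above was not tested, beyond the fit with the PCG share of TPM as a covariate.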

How the results depend on the processing

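Over RLE size factors, DESeq2, the exact test, no filter, 1 fit over 3 groups, the PCG share as covariate and the fits without single or low-depth libraries, the count of DEGs between NC and WL stayed within 1.5 times 4689 (leave-one-out 4267 to 5089). It was 1302 within the low-ND4 set and 1109 there without WL replicates 1, 6 and 7. Replicate numbers only name samples: same-numbered deviations correlated at -0.278 to 0.356 in expression, 3 of 10 above 0.1, and the replicate block gave 3668 DEGs. Variable bins numbered 5100 after quantile normalization, 20906 at a difference above 0.5, and 9854 to 13054 in leave-one-out fits; switch bins numbered 338, 968 at 70% against 30%, and 151 to 279, the highest without WL replicate 10. Genes that returned numbered 62 with the PCG share as covariate, 53 without WL replicates 1, 6 and 7 and 12 within the low set, against 108. Genes changed only with weight loss numbered 676, 470 and 520 in those fits, against 1646. Within the low set 74 genes stayed changed and 0 overshot, and with DESeq2 8 overshot.

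Some named genes turned in direction, and CEBPA, described above, also did so with the set as a term. With the set as a term the values were 0.051 for ZNF423, 0.246 for PDPN, 0.015 for COL5A1, -0.098 for RPS3, 0.091 for BSCL2, 0.331 for COL6A1, -0.015 for RPS9, 0.465 for TIMP1, 1.201 for EGR1 and 1.006 for ZFP36. Within the low set they were -0.083 for CRELD2, 0.111 for ZNF423, 0.11 for PDPN, 0.134 for PAPPA, -0.054 for RPS3, 0.143 for PER1, 0.068 for ND2, 0.268 for COL6A1, 0.594 for TIMP1, 1.474 for EGR1 and 1.15 for ZFP36. Within the low set and without WL replicates 1, 6 and 7 they were -0.174 for CRELD2, 0.263 for ZNF423, 0.227 for PDPN, 0.169 for HSPG2, 0.157 for PAPPA, 0.16 for COL5A1, -0.243 for MSMO1, -0.116 for RPL14, 0.606 for TIMP1, 1.614 for EGR1, -0.226 for RPS3, -0.46 for CD79B, 0.389 for PER1, 0.059 for ND2, -0.063 for DPEP2, -0.306 for MS4A1, 0.351 for COL6A1, 1.258 for ZFP36, -0.196 for RPS9 and 0.02 for ZBTB16. The A-B index difference at UQCR10 was -0.033 after quantile normalization. The causes were not tested. The low set rests on 3 NC libraries, and a value that misses the threshold there does not show that groups were alike.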
